A study of Mus musculus with 4 samples.

Results

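The genes of purine salvage and de novo purine synthesis were followed in RNA-seq libraries of E14 mouse embryonic stem cells (mESCs) with and without Npac. The members were 10 genes of the 56748 listed in the deposited tables: *Hprt* and *Aprt* (salvage), *Ppat*, *Gart*, *Pfas*, *Paics*, *Adsl* and *Atic* (de novo synthesis), and *Impdh1* and *Impdh2* (the branch to GMP). *Hprt* was chosen by its measured reads, which were nearly absent in both WT libraries, so its values are described and not tested. The other 9 genes were taken by their place in the pathway, to ask whether they differed between the same libraries. This choice was made with earlier results of these data known. WT cells (wild-type E14) gave 2 libraries, WT1 and WT2. *Npac* KO cells gave 1 library from each of 2 knockout lines, KO1 and KO2, made in E14 cells with CRISPR/Cas9 guides against *Npac* (listed as *Glyr1*), puromycin selection and picking of colonies. All cells were grown without feeders on gelatin in medium with serum and LIF, and no other treatment, allele or age was given. The labels do not say whether WT1 and WT2 were separate cultures, so the p-values measure the spread between these libraries. Each KO line is 1 library, and a difference between the lines cannot be told apart from a difference between libraries.

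Cells obtain purine nucleotides in 2 ways. In salvage, phosphoribosyltransferases join a free base to phosphoribosyl pyrophosphate (PRPP): HPRT uses hypoxanthine and guanine, and APRT uses adenine. In de novo synthesis the ring is built on PRPP from amino acids, bicarbonate and formyl groups carried by tetrahydrofolate, which ends in IMP. IMP then goes to AMP through ADSL or to GMP through IMP dehydrogenase, and purine nucleotides inhibit the first enzymes of the route. *Hprt* is X-linked and can be selected for and against in culture, which made it a favoured target in ES cell work, and sublines of E14 without HPRT activity are in use. The labels name the cells only as E14, and the subline is not given in the sources used here. A difference of subline or clonal background between WT and KO libraries was not tested. This design cannot tell it apart from the *Npac* genotype.

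The total count was between 15850805 and 16965120 per library, and 18157 genes had enough reads to be tested. All 10 members were among them, *Hprt* through its KO reads alone. *Glyr1* was read 3961 and 3115 times in WT, against 744 and 888 times in KO, with no overlap. Of the ES cell markers, 7 of 7 were read in every library, with a summed level of 3738 to 4293 FPKM (reads per kilobase of gene, relative to a scaled library size) in WT and 3559 to 3676 FPKM in KO. The largest part of this sum was *Dppa5a* (1979 to 2436 FPKM), which was higher in both KO libraries without passing the test. Of the 7 markers, 5 were lower in both KO libraries than in both WT libraries, against 32.5% of all genes. The median log2 fold change of the 7 markers was -0.53. EdgeR called 1 of them lower, *Zfp42* (log2 fold change -2.64), where 10.7% of all genes were called lower. At an unadjusted p under 0.05, 3 markers were lower, and DESeq2 called *Zfp42*, *Esrrb* and *Tdgf1* lower. Fibroblast markers summed to 11.8 to 20.8 FPKM in WT and 12.2 to 14.7 FPKM in KO, with *Col3a1* and *Dcn* at 0 reads and *Col1a1* called higher in KO. Endoderm markers summed to at most 4.26 FPKM and neural markers to 28.5 to 35.8 FPKM in any library, with *Sox1* called lower in KO. Trophoblast markers summed to 10.4 to 14.3 FPKM in WT and 39.0 to 44.2 FPKM in KO, mostly from *Tfap2c*, with *Cdx2* at 0 reads in WT1 and KO1. The part of these other markers in the results was not tested. Genes on chromosomes 8 and 11 had higher medians in both KO libraries, and the values are given beside the members that lie there.

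The 5′ flanks of both salvage genes and of *Gart* are shown because these genes held the contrasts described next. Each is the 250 bases before the RefSeq start, 5′ to 3′ on the strand of the gene, in build GRCm38.p6. *Hprt* is at chrX:52987828-52988077 on the plus strand, *Aprt* at chr8:122576908-122577157 on the minus strand and *Gart* at chr16:91646973-91647222 on the minus strand. Capitals mark matches to any of 3 motifs, searched on both strands. The GC box, which SP family factors bind, was spelled GGGCGG. The CCAAT box, the motif of NF-Y, was searched by the letters of its name. The E-box, which MYC and related factors bind, was spelled CACGTG. None of these motifs overlaps another in the windows printed here.
Hprt: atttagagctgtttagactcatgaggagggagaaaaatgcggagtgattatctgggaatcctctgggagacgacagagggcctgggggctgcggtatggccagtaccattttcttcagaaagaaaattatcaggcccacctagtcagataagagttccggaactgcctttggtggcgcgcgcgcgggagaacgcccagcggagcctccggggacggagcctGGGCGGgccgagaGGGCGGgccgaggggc
Aprt: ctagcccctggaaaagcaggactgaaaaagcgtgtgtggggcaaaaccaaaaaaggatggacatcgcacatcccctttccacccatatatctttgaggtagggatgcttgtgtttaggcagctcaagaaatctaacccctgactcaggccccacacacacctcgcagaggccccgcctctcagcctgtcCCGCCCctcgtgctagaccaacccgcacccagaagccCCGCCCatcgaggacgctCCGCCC
Gart: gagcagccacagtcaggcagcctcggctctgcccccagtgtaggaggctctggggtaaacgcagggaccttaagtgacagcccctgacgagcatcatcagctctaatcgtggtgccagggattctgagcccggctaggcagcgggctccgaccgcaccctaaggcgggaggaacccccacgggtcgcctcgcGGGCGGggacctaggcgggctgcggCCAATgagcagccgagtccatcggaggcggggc
The *Hprt* window held 2 GC boxes, the *Aprt* window 3 GC boxes, and the *Gart* window 1 GC box and 1 CCAAT box. The GC content was 59.6%, 58.4% and 68.0%, where the median of 32851 windows of the same length was 52.4%. A GC box was found in 32.7% of all windows and 3 or more in 8.47%, a CCAAT box in 33.8% and an E-box in 6.02%. Windows were available for 9 of the 10 members, 10 windows in all, and each held at least 1 GC box. An E-box was found in the windows of *Atic*, *Paics* and *Impdh2*, and these matches say nothing of binding. *Pfas* had no window.

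*Hprt* (ENSMUSG00000025630, X chromosome from 52077014 to 52110536 in the coordinates of the files, plus strand) was covered by 5 reads (WT1), 6 reads (WT2), 2932 reads (KO1) and 2710 reads (KO2). Per length, this was 0.252 and 0.264 FPKM in the WT libraries and 145.8 and 119.3 FPKM in the KO libraries. By FPKM it stood at place 13595 in WT1 and 14059 in WT2 among 21970 protein-coding genes, and at place 261 in KO1 and 283 in KO2. Thus the gene with the lowest level of the 10 members in WT cells was among the abundant mRNAs of both KO lines, and the groups were far apart. The WT level was 0.196% of the KO level (95% exact binomial interval 0.0976% to 0.350%, which covers counting error only). The lowest KO library was 456-fold above the highest WT library in TMM-normalized CPM (counts scaled to the effective library size). The fitted log2 fold change was 8.97. The reads in WT were above the limit of 3 reads used here as the floor, so *Hprt* was read at a very low level there. Whether these few reads came from *Hprt* mRNA of the WT cells was not tested. In bulk samples, fewer cells with an mRNA and less mRNA per cell cannot be told apart.

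None of the 10 tested genes nearest to *Hprt* was called higher in KO. On each side the 5 nearest tested genes were taken in the order of the deposited coordinates. *Phf6*, a chromatin-associated PHD finger gene whose span ends 31.2 kb before *Hprt*, had 543 and 575 reads in WT and 548 and 577 in KO. Its log2 fold change was 0.0028 (SE 0.20, adjusted p = 0.994 by the edgeR quasi-likelihood fit), and the groups overlapped. The closest tested gene after *Hprt*, the lncRNA *C430049B03Rik* at 32.7 kb, had 16 and 21 reads in WT and 16 and 11 in KO, which is too few for a firm statement (log2 fold change -0.44, SE 0.55, adjusted p = 0.600). Of the 10 neighbours, 3 were lower in KO (*Ccdc160*, *Rps2-ps13* and *Fam122b*, log2 fold changes -1.04, -1.31 and -1.12). Over all genes, 10.7% were called lower and 11.0% higher. The number called higher was 0 by edgeR, 0 at an unadjusted p under 0.05 and 0 by DESeq2. With 10 genes, a count of 0 cannot be set apart from the 11.0% of all genes called higher. The other log2 fold changes lay between -0.66 (*Gm14584*) and 0.21 (*Rtl8c*), as the plot of the neighbours shows.

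**Figure D1:**
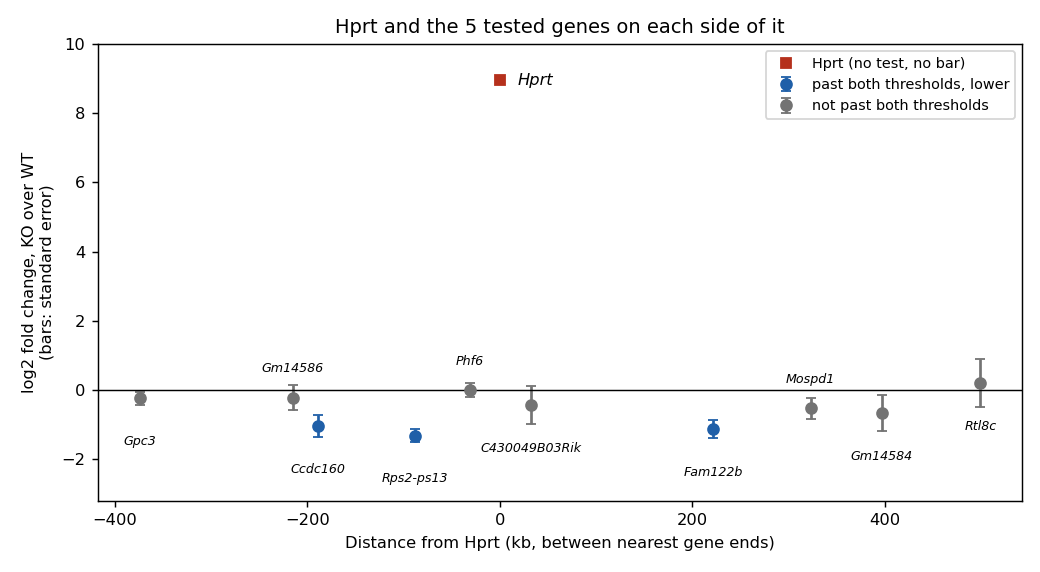
The log2 fold change of KO over WT (vertical axis, bars are standard errors of the fit) is plotted against the distance from *Hprt* in kb (horizontal axis) for *Hprt* and the 5 tested genes on each side. *Hprt* sits at 8.97 while its neighbours lie between -1.31 and 0.21, with 3 of them past both thresholds on the lower side.

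The 5 tested genes whose pattern was most like that of *Hprt*, by the Euclidean distance of centred log2 CPM over the 4 libraries, were *Trim12a*, *Gm34267*, *Ubd*, *Pnp2* and *Gm10499*, at distances of 0.238 to 1.56. All were read in both KO libraries and had 0 to 2 reads in the WT libraries, so their distances depend on the prior count of 0.5. *Trim12a* had 0 and 0 reads in WT and 218 and 186 in KO. *Ubd*, which encodes a ubiquitin-like protein, had 0 and 0 reads in WT and 296 and 190 in KO. *Pnp2*, a purine nucleoside phosphorylase gene, was the only gene of these 5 on a purine list and is described with that list.

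Levels of the members are set side by side in the plot of FPKM by library. In WT cells *Paics* was highest (131.7 and 153.5 FPKM), and its range overlapped that of *Impdh2* (99.8 and 133.3 FPKM). *Gart*, *Aprt* and *Ppat* followed without overlap between neighbours in this order, at 40.3 and 41.0, 37.7 and 39.9, and 25.4 and 22.3 FPKM. *Atic*, *Impdh1* and *Pfas* overlapped with their neighbours, between 14.2 and 21.6 FPKM. *Adsl* (13.0 and 13.9 FPKM) and *Hprt* were last. In KO cells the order was *Paics*, *Hprt*, *Gart*, *Impdh2*, *Aprt*, *Pfas*, *Ppat*, *Impdh1*, *Adsl* and *Atic*. There *Gart* overlapped with *Impdh2*, *Ppat* with *Impdh1* and *Adsl* with *Atic*. *Hprt* exceeded *Aprt* 1.69-fold in KO1 and 1.63-fold in KO2, whereas in WT cells it had 0.00669 and 0.00662 of the *Aprt* level.

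**Figure D2:**
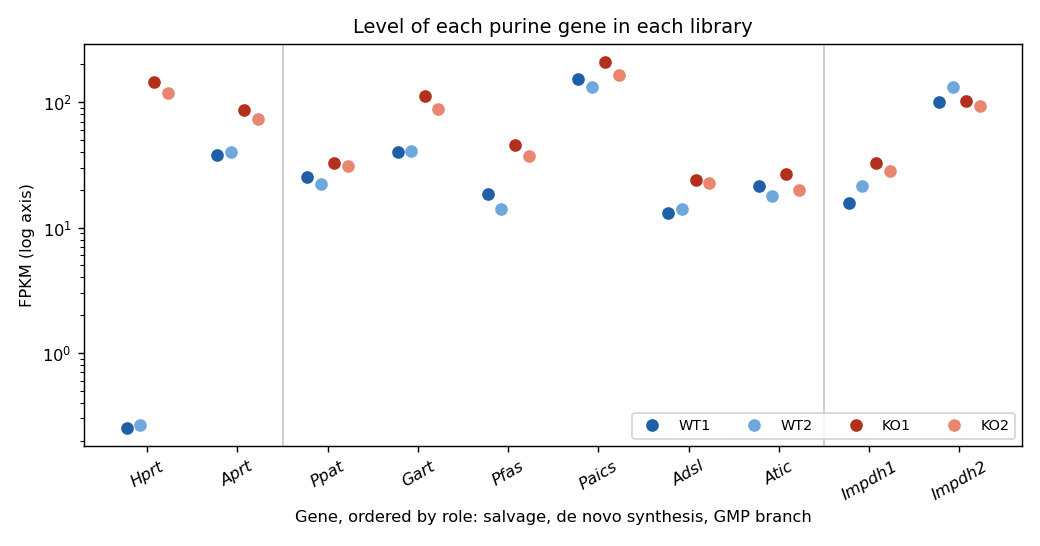
The FPKM of each of the 10 genes (vertical log axis) is drawn for WT1, WT2, KO1 and KO2, with 1 point per library and vertical lines between salvage, de novo and GMP branch genes. *Hprt* lies near 0.26 FPKM in both WT libraries and above 119 FPKM in both KO libraries, while every other gene stays between 13.0 and 208.3 FPKM.

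Of the 9 members other than *Hprt*, 5 genes rose in KO cells and 4 genes did not pass both thresholds. The thresholds were a Benjamini-Hochberg adjusted p under 0.05 over all genes tested and a fold change over 1.5, and 11.0% of all genes were called higher by them. The number called lower was 0 by edgeR, 0 at an unadjusted p under 0.05 and 0 by DESeq2. By edgeR, 10.7% of all genes were called lower. With 9 genes, a count of 0 cannot be set apart from that share. The median log2 fold change of the 9 genes was 0.71, against 0.0015 over all genes tested. The KO pair lay wholly above the WT pair in 7 of the 9 genes, against 33.2% of all genes, and wholly below it in 0 genes, against 32.5% of all genes. With each KO library left out in turn the number of genes called higher was 2 without KO1 (*Gart* and *Pfas*) and 3 without KO2 (*Aprt*, *Gart* and *Pfas*). In the same settings the number of all genes called higher fell from 1999 to 642 and 671.

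*Aprt* (ENSMUSG00000006589, chromosome 8 from 123301374 to 123303648, minus strand) encodes the adenine salvage enzyme. It had 61.4 and 65.0 CPM in the WT pair, 140.2 CPM in KO1 and 120.6 CPM in KO2. KO1 lay further above the WT pair than KO2, and the groups did not overlap. It rose from 63.2 ± 2.59 to 130.4 ± 13.9 CPM (SD, n = 2 each), a log2 fold change of 1.05 (SE 0.18, adjusted p = 0.0087 by the edgeR quasi-likelihood fit). Relative to all genes, the median log2 difference of chromosome 8 from WT was 0.52 in KO1 and 0.53 in KO2, and 26.1% of its genes were called higher. With the chromosome medians removed, the log2 fold change of *Aprt* was 0.52 (adjusted p = 0.0808), so it no longer passed. Without KO1 its log2 fold change was 0.92 and the adjusted p was 0.09997.

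Among the 6 de novo genes, 3 rose and 3 did not pass. *Ppat* encodes the amidotransferase that commits PRPP to purine synthesis. Its level was 113.1 and 99.5 CPM in WT and 146.5 and 139.9 CPM in KO, and the groups did not overlap. The log2 fold change was 0.43 (SE 0.18, adjusted p = 0.117). *Ppat* and *Paics* lie head to head on chromosome 5 and share 272 bases on opposite strands, and the strand setting of the counting is not given in the sources used here, so reads from the shared bases cannot be told apart.

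*Gart* (ENSMUSG00000022962, chromosome 16 from 91418074 to 91443840, minus strand) encodes a trifunctional enzyme of early and middle steps, among them a formyl transfer. It had 208.7 and 212.9 CPM in the WT libraries, 583.7 CPM in KO1 and 459.2 CPM in KO2. The WT libraries nearly coincided, and both KO libraries were more than 2-fold above them. *Gart* rose by a log2 fold change of 1.31 (SE 0.20, adjusted p = 0.00554). The call remained under the alternative settings, with log2 fold changes of 1.11 to 1.47. Of these settings, no limit on the fold change repeats the main fit. Sums with pseudogenes added no reads to *Gart*, so neither of them is a separate check. The span of *Gart* overlaps that of the antisense lncRNA *Gm15964*, which had 43 to 69 reads in any library. A setting with chromosome medians removed gave 1.36.

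*Pfas* (ENSMUSG00000020899, chromosome 11 from 68876523 to 68899286, minus strand) encodes the glutamine-using synthase between 2 steps of GART. It had 148.4 and 113.3 CPM in the WT pair, 360.4 CPM in KO1 and 302.2 CPM in KO2, and the groups did not overlap. It rose by a log2 fold change of 1.34 (SE 0.21, adjusted p = 0.00641). The median log2 difference of chromosome 11 was 0.51 in KO1 and 0.49 in KO2, with 26.7% of its genes called higher. With chromosome medians removed the log2 fold change of *Pfas* was 0.84 (adjusted p = 0.03), so it still passed, at a smaller size.

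*Paics*, a bifunctional carboxylase and ligase gene, was the most abundant de novo mRNA in all 4 libraries. It had 485.3 and 416.9 CPM in WT and 656.1 and 530.8 CPM in KO, with a log2 fold change of 0.40 (SE 0.20, adjusted p = 0.191). *Paics* made up 54.6% to 56.4% of the summed FPKM of the 6 genes in WT and 45.5% to 46.3% in KO. *Adsl* (ENSMUSG00000022407, chromosome 15 from 80832691 to 80855147, plus strand) encodes the lyase that acts in the route to IMP and again in the step to AMP. It had 74.0 and 79.3 CPM in WT and 135.5 and 130.5 CPM in KO, and the libraries of each group lay close together. *Adsl* rose by a log2 fold change of 0.80 (SE 0.17, adjusted p = 0.0174), and without KO1 or KO2 the adjusted p was 0.181 or 0.145. *Atic*, which encodes the last enzyme of the route to IMP, had 173.1 and 145.0 CPM in WT and 212.9 and 160.8 CPM in KO. Its groups overlapped, and the log2 fold change of 0.23 (SE 0.21, adjusted p = 0.455) was near the spread between libraries. It was 0.0023 without KO1 and 0.42 without KO2. The summed level of the 6 genes was 272.4 and 241.2 FPKM in WT and 450.2 and 364.8 FPKM in KO, a ratio of means of 1.59.

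**Figure D3:**
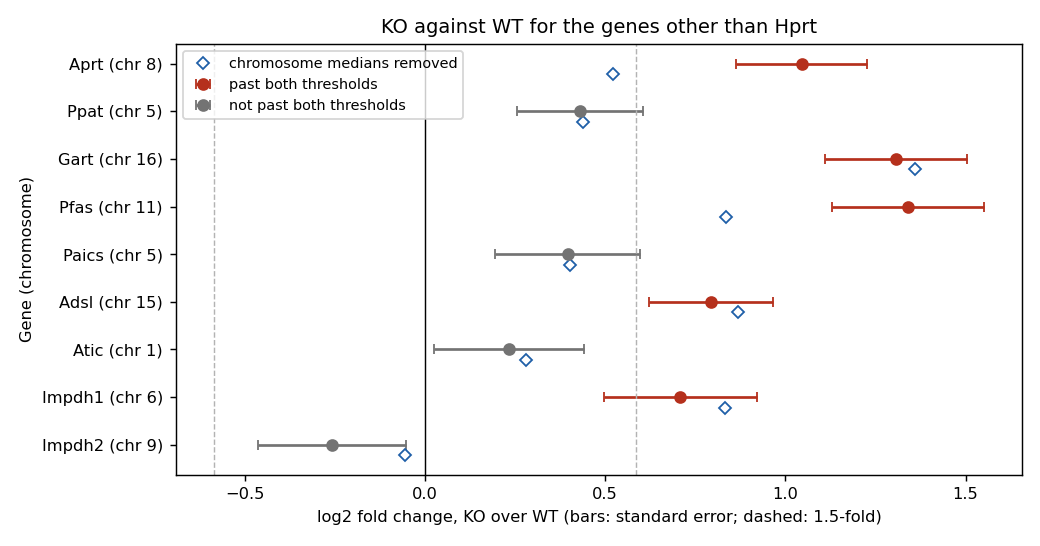
The log2 fold change of KO over WT (horizontal axis, circles with standard errors) is drawn for the 9 genes other than *Hprt*, with open diamonds for the fit with chromosome medians removed and dashed lines at 1.5-fold. *Gart*, *Pfas*, *Aprt*, *Adsl* and *Impdh1* are past both thresholds, and the diamonds of *Aprt* and *Pfas*, on chromosomes 8 and 11, lie at 0.52 and 0.84.

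The IMP dehydrogenase genes, whose products catalyse the committed step to GMP, did not show the same values. *Impdh1* (chromosome 6) had 52.4 and 71.8 CPM in the WT pair, 107.6 CPM in KO1 and 95.5 CPM in KO2. The groups did not overlap, but WT2 was well above WT1. *Impdh1* rose by a log2 fold change of 0.71 (SE 0.21, adjusted p = 0.0491), just inside the threshold. It did not pass with upper-quartile factors (adjusted p = 0.0514) or in either fit of FPKM (0.0537 and 0.0538), and the log2 fold change was 0.47 without WT1. Without KO1 or KO2 the adjusted p was 0.332 or 0.187. *Impdh2* (chromosome 9), the more abundant gene, had 309.2 and 413.8 CPM in WT and 313.7 and 291.1 CPM in KO. Its groups overlapped, with a log2 fold change of -0.26 (SE 0.20, adjusted p = 0.398). It was -0.03 without WT2. *Impdh1* made up 13.7% and 13.9% of the summed FPKM of both genes in WT and 24.3% and 23.5% in KO. No test was run on these shares.

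*Impdh2* has a processed pseudogene on chromosome 8, *Impdh2-ps*, that matched its transcripts at 99.7% identity over its whole length. It had 36.4 to 41.1 reads per 100 reads of *Impdh2* in each library, so reads of both are uncertain. Summed with it, *Impdh2* gave a fitted difference of -0.23 on the log2 scale (adjusted p = 0.446). The other pseudogenes matched by name or sequence to *Adsl*, *Aprt*, *Paics*, *Pfas* and *Ppat* had at most 7 reads in any library. The number of members called higher stayed 5 with these sums, a setting chosen after seeing the data.

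The KO lines are given side by side, against the same 2 WT libraries. In the KO1 library the log2 differences from WT were 1.15 for *Aprt*, 1.47 for *Gart*, 1.46 for *Pfas*, 0.82 for *Adsl* and 0.79 for *Impdh1*. In the KO2 library they were 0.93, 1.12, 1.21, 0.77 and 0.62 for the same genes. Each was smaller in KO2. With the spread taken from the WT pair, *Aprt*, *Gart* and *Pfas* were called in KO1, where 3.83% of all genes were called higher, and *Pfas* alone in KO2, where 3.10% were. The KO2 values and the setting without KO1 compare the same 3 libraries, and the call on *Gart* in them depended on the fit. Its adjusted p was 0.0525 with the filter and factors set over all 4 libraries, and 0.0432 with KO1 left out of those steps too. No member was called lower in KO1 or KO2, against 3.34% and 2.34% of all genes. The difference between the lines was not tested.

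Around the members, a list of PRPP supply held the genes of PRPP synthetases and of their associated proteins. PRPP is the substrate of both routes. Of the 5 genes on this list, 4 rose and 1 did not pass, where 11.0% of all genes were called higher. The median log2 fold change of the list was 0.73. *Prps1* and *Prps2* encode PRPP synthetases and *Prpsap1* and *Prpsap2* their associated proteins. *Prps1* had 104.8 and 129.5 CPM in WT and 173.1 and 202.3 CPM in KO (log2 fold change 0.68, adjusted p = 0.0437), and it did not pass without WT1 (0.51). *Prps2* had 27.8 and 32.3 CPM in WT and 52.4 and 47.1 CPM in KO (log2 fold change 0.73, adjusted p = 0.0376). *Prpsap1* and *Prpsap2*, both on chromosome 11, rose by log2 fold changes of 1.02 (adjusted p = 0.00782) and 1.23 (adjusted p = 0.00777), and with chromosome medians removed *Prpsap1* no longer passed (0.52, adjusted p = 0.0693). The number that rose was 1 without KO1 and 0 without KO2, settings in which all genes called higher fell from 1999 to 642 and 671.

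Of the other genes of the AMP and GMP branches, 4 of 5 did not pass and 1 fell, where 10.7% of all genes were called lower and 11.0% higher. A count of 1 in 5 is too small to set apart from that share, and the median log2 fold change was 0.30. *Gmps*, which encodes GMP synthetase, had 109.3 and 118.0 CPM in WT and 146.2 and 133.8 CPM in KO (log2 fold change 0.30, SE 0.17, adjusted p = 0.246). *Adssl1*, which encodes the muscle type of adenylosuccinate synthetase, had 35.2 and 49.3 CPM in WT and 16.5 and 17.2 CPM in KO, and fell by a log2 fold change of -1.33 (SE 0.24, adjusted p = 0.00981). The call on *Adssl1* was lost without KO1 (adjusted p = 0.068) and without KO2 (adjusted p = 0.0665).

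Of 27 genes of salvage and breakdown, 22 were tested, of which 7 rose, 1 fell and 14 did not pass. Over all genes, 11.0% were called higher and 10.7% lower. The median log2 fold change was 0.41. *Pnp2* was among the 7 and was tested through its KO reads alone. With at least 10 reads required in every library, 19 genes of the list were tested, of which 4 rose and 1 fell. All genes called higher numbered 1561 in that setting. *Pnp2* had 0 reads in both WT libraries, 185 in KO1 and 176 in KO2, and was at least 51.9-fold higher in KO, with 3 reads per library as the floor in WT. The span of *Pnp2* lies inside that of *Pnp* on the same strand, so reads of these paralogs are uncertain. *Pnp* had 321 and 358 reads in WT and 415 and 377 in KO (log2 fold change 0.22, adjusted p = 0.515). The read numbers of *Nt5e*, which encodes the cell surface enzyme CD73 that releases adenosine from AMP, were 13 and 11 in WT, 339 in KO1 and 155 in KO2. Its log2 fold change was 4.37 (SE 0.56, adjusted p = 0.00321), with more than 2-fold between the KO libraries. *Nt5c*, a nucleotidase gene on chromosome 11, rose by 2.01 (SE 0.24, adjusted p = 0.00257).

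*Mtap*, whose product releases adenine from methylthioadenosine, had 48.0 and 58.3 CPM in WT and 126.7 and 110.8 CPM in KO, a log2 fold change of 1.16 (SE 0.19, adjusted p = 0.0078). *Dck*, the deoxycytidine kinase gene, rose by 0.73 (SE 0.18, adjusted p = 0.0276) and *Adk*, the adenosine kinase gene, by 0.94 (SE 0.28, adjusted p = 0.0495). *Adk* did not pass in 4 of the fits with other factors, filters or units that are named in the closing section, or without KO1 or KO2. *Ada*, the adenosine deaminase gene, had overlapping groups (-0.05, adjusted p = 0.914). *Adal*, an adenosine deaminase-like gene, fell from 47.9 and 40.1 CPM to 12.2 and 13.2 CPM, a log2 fold change of -1.79 (SE 0.22, adjusted p = 0.0029). Without KO1 the list had 3 genes that rose, without KO2 4 genes and without WT2 10 genes, where all genes called higher numbered 642, 671 and 3477.

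Of 7 transporter genes tested, 1 fell, which is near the 10.7% of all genes called lower, and the median log2 fold change was 0.21. *Slc29a1*, which encodes the equilibrative nucleoside transporter ENT1, had 328.2 and 281.8 CPM in WT and 128.5 and 134.6 CPM in KO, a log2 fold change of -1.21 (SE 0.18, adjusted p = 0.00545). It was the most abundant transporter of the list in both groups by FPKM. *Slc43a3*, a purine base transporter gene, had 11.9 and 24.3 CPM in WT and 21.9 and 34.8 CPM in KO, and its groups overlapped (log2 fold change 0.65, adjusted p = 0.248).

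The 14 genes listed around formyl-tetrahydrofolate, the donor of the formyl transfers of GART and ATIC, included both producers and consumers of it. Of these 14 genes, 1 rose, 3 fell and 10 did not pass. Over all genes, 11.0% were called higher and 10.7% lower. The counts therefore give no direction of supply. The median log2 fold change was -0.19. *Aldh1l2* and *Shmt2*, which lie on chromosome 10 and encode mitochondrial enzymes, fell. *Aldh1l2* had 52.7 and 25.5 CPM in WT and 1.35 and 4.10 CPM in KO (log2 fold change -3.82, adjusted p = 0.0048). *Shmt2* had 542.8 and 373.6 CPM in WT and 202.6 and 194.4 CPM in KO (-1.21, adjusted p = 0.0107). *Shmt1*, the cytosolic serine hydroxymethyltransferase gene on chromosome 11, rose from 89.2 and 83.7 CPM to 202.3 and 181.9 CPM (1.15, adjusted p = 0.00577). *Aldh1l1* also fell (-0.82, adjusted p = 0.0495). *Mthfd1*, *Mthfd1l* and *Mthfd2* had log2 fold changes of 0.30, -0.52 and -0.73 and did not pass (adjusted p = 0.373, 0.168 and 0.0552). The count of genes that fell was 2 without KO1 and 1 without KO2, where all genes called lower numbered 606 and 681 against 1946.

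The pyrimidine genes were listed for comparison. Of 18 tested, 7 rose and 11 did not pass, with a median log2 fold change of 0.71, where 11.0% of all genes were called higher. *Cad*, which encodes the trifunctional enzyme of the first pyrimidine steps, had 198.1 and 251.2 CPM in WT and 713.8 and 669.2 CPM in KO, a log2 fold change of 1.62 (SE 0.20, adjusted p = 0.00295). *Uprt*, *Dctd* and *Upp1* rose by 1.91, 1.52 and 1.08. *Uprt* had only 21 and 12 reads in WT and 65 and 62 in KO. Of the genes that rose, *Dctd* and *Dhodh* lie on chromosome 8 and *Upp1* and *Tk1* on chromosome 11. *Cad*, *Dut* and *Uprt* lie on other chromosomes. With chromosome medians removed, the median log2 fold change of the list was 0.45. *Umps*, which encodes the last enzyme to UMP, had overlapping groups (0.03, SE 0.18, adjusted p = 0.925). With chromosome medians removed 4 genes of this list rose, without KO1 2 genes and without KO2 2 genes. All genes called higher numbered 1692, 642 and 671 in these settings.

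**Figure D4:**
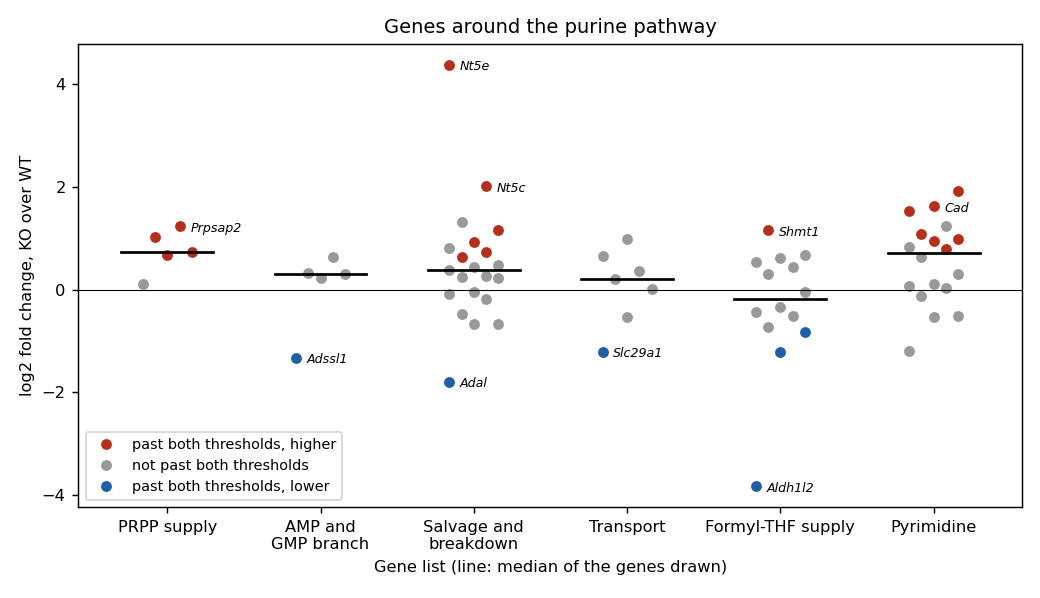
The log2 fold change of KO over WT (vertical axis) is drawn for the tested genes of the 6 other lists, with 1 point per gene and a line at the median of the genes drawn, and *Pnp2* left out because it had no reads in WT. *Nt5e* lies highest at 4.37 and *Aldh1l2* lowest at -3.82, and the PRPP supply list has 4 of its 5 genes past both thresholds on the higher side.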

How the data were processed

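Total RNA of E14 cells was sequenced by the authors as paired-end Illumina reads. Per the labels, reads were mapped with HISAT2 2.0.5 (the study's methods name another version) and counted on genes with featureCounts 1.5.0-p3. The deposited counts are raw reads per gene. The deposited FPKM values were made by the authors from the same counts with the listed gene length and a scaled library size. The labels name mm10, but of 52088 genes shared with GENCODE M21 of GRCm38, 1487 had the same start and end, so gene coordinates are given as in the files, and the build of the files was not settled.

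Each comparison of the counts used edgeR 4.0.16 under R 4.3.3 (TMM, filterByExpr, quasi-likelihood test, KO against WT, Benjamini-Hochberg adjustment over 18157 genes). CPM are TMM-normalized. SE is the log2 fold change divided by the root of the F statistic. The test was checked on simulated counts. The fit was repeated with DESeq2 1.42.0, limma 3.58.1 (limma-trend on FPKM with pseudocounts of 1 and 0.1), other factors and filters, a replicate block, chromosome medians removed and each library left out. Pseudogenes were matched by name or by blastn 2.17.0+ to GENCODE M21 transcripts at 90% identity over 60% of their length. Promoter windows came from RefSeq.

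Named genes were the members, *Glyr1*, up to 4 called genes in each direction of each list, a set of key enzymes, 5 tested genes on each side of *Hprt*, the 5 patterns nearest to it and pseudogenes of members. The members and lists were chosen with earlier results of these data known. The total count of 15850805 to 16965120 reads sets the depth, and intervals and floors cover counting error only.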

Additional observations from a re-analysis of the deposited data

How the results depend on the processing

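With the replicate number of the labels as a block, 3128 genes were called higher and 2994 lower, against 1999 and 1946 without it, and the members called remained 5 higher and 0 lower by count. The numbers only name the libraries, and the deviations WT1 - WT2 and KO1 - KO2 had a correlation of 0.346 across 11685 genes, which are not independent replicates. With each library left out in turn, the genes called higher numbered 642 to 3477, the genes called lower 606 to 3311, the members called higher 2 to 5 and the members called lower 0 to 0. With 1 KO or 1 WT library left, that library is assumed to vary like the other group. Under the other settings (DESeq2, upper-quartile factors, no filter, at least 10 reads in every library, FPKM with pseudocounts of 1 and 0.1, chromosome medians removed, no limit on the fold change, and sums with pseudogenes, the last chosen after seeing the data) the members called higher numbered 4 to 5 and those called lower 0. *Adk* did not pass with upper-quartile factors (adjusted p = 0.0516), with at least 10 reads in every library (0.052) or in either fit of FPKM (0.115 and 0.11). *Nt5c2*, named after its values were seen, passed with an adjusted p of 0.0492 from edgeR. It did not pass with DESeq2 (0.062), no filter (0.0521), at least 10 reads in every library (0.0506) or in either fit of FPKM (0.142 and 0.133). *Aldh1l1* did not pass with upper-quartile factors (0.0645), with at least 10 reads in every library (0.0557), in either fit of FPKM (0.0821 and 0.0734) or with chromosome medians removed (0.0808). The cause was not tested. Reads below the floor of 3, as for *Pnp2* in WT cells, allow only a bound.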
